A study of Danio rerio with 2 samples.

Results

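The sarcomere and contractile genes of the zebrafish embryo were described in mutants of gnl2 and in wild types. Gene probes were taken by name: those called myh, myl, tnnt, tnni, tnnc, tpm, acta, actc or actn with any ending, together with smyd1. The names desma, des, ttna, ttnb and tcap were also sought, and no probe carried one of them. The rule found 39 of the 21495 gene probes on the array, and these stood for 24 genes under their current symbols, among 17964 gene or transcript names. Of the 39 probes, 18 belonged to fast skeletal muscle genes, 2 to genes annotated as slow, 3 to cardiac genes, 10 to genes shared by striated muscles and 4 to smooth muscle or non-muscle genes. The remaining 2 belonged to mylipa, a ubiquitin ligase caught by the first letters of its name.

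The mutants were homozygous for the bw41c allele of gnl2, which encodes a nucleolar GTPase of large ribosomal subunit assembly, and came from crosses of heterozygous carriers. The controls were wild types of the TL strain, and the labels do not say whether they shared parents with the mutants. Both genotypes were collected by morphology at 22 hours post-fertilization, and each RNA extract came from 40 pooled whole embryos, part of the collection having been used for genotyping. Each of 2 arrays took labelled RNA of both genotypes, the mutant being in red (Cy5) on array 1 and in green (Cy3) on array 2. The series text calls the arrays biological replicates with a dye swap, while both titles end in the same number. If the arrays share extracts, the SDs and p-values given here measure technical spread only.

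A sarcomere is the repeating unit of striated muscle, in which myosin heavy and light chains form the thick filament and actin, tropomyosin and the troponins C, I and T form the thin filament. Fast, slow and cardiac muscle use different members of these families, and in the zebrafish trunk slow fibres arise next to the notochord while fast fibres make up most of each somite. At the age sampled the older somites already twitch and the heart tube is about to begin beating. In RNA from whole embryos, fewer muscle cells and less RNA per muscle cell cannot be told apart.

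All ratios are log2 mutant over wild type, with the sign of array 2 turned so that a positive value means a higher signal in the mutant on either array. Signals were background-corrected and loess-normalized within each array, and adjusted p-values are from limma over 19284 probes. The gnl2 probe itself read -0.99 on array 1 and -2.27 on array 2. The median probe gave a red signal of 482 and a green signal of 243 on array 1, and 305 and 204 on array 2. Between 92.7% and 96.4% of gene probes were well above background in each channel. Across all tested probes the turned ratios of the arrays correlated at r = -0.15 (Pearson), a description over probes that share hybridisations and dyes. The median of all tested probes was 0.0019 in the mean of the arrays, and the SD across probes was 0.27 on array 1 and 0.22 on array 2. Of the marker lists for other tissues, hbbe2 (an embryonic beta-globin) read 0.62 and 0.59 and clec14a (endothelium) read 0.38 and 0.32. The neural progenitor factor sox2 read -0.86 and -0.36. In the hatching gland list he1.2 read 1.06 and 0.33, and in the segmentation and tailbud list cyp26a1 read 0.72 and 0.38. In the lens list crygn1 read 1.02 and 0.55 at its brighter probe and -0.086 and 0.098 at the other. Each of these genes was picked for the largest absolute mean of its list. In the neural list, 4 of 7 probes were lower on both arrays and 1 was higher (20.0% and 21.4% of all probes). Higher on both arrays were 3 of 4 erythroid and 4 of 5 endothelial probes, with hbae3 and fli1 split. The hatching gland list had 1 of 4 probes higher on both arrays and 2 lower on both. For lens these were 1 and 1 of 5 probes, and for segmentation and tailbud 1 and 2 of 7. Of 14 epidermal keratin probes, 5 were lower in the mutant on both arrays (20.0% of all probes) and 9 were split (58.6% of all probes). The krt8 probes read -0.61 and -0.47, and -0.28 and -0.44. In contrast, krt5 read -0.995 and -0.0035, -1.19 and 0.36, and -0.28 and 0.27 at its 3 probes. The part of any shift in tissue makeup in the muscle values was not tested.

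Of the 39 contractile probes, 37 for 23 genes were tested, and none was too dim. Outlier flags on array 1 removed the probe of the fast myosin heavy chain myhc4, which read 0.92 and -0.78. They also removed a bright probe of actc1b, which read 0.21 and 0.41. No tested probe had an adjusted p under 0.05 in limma's fit, where 0% of all probes did and 3.28% had an unadjusted p under 0.05. At an unadjusted p under 0.05, 1 member probe was higher in the mutant (2.03% of all probes) and 2 were lower (1.24% of all probes), the 2 being probes of the same gene. The 95% interval of a member's mean ratio, not adjusted for the number of probes, reached between 0.24 and 2.05 to either side. Its median reach was 0.33, and a mean smaller than its own reach could not be told from 0 even without adjustment. At the adjusted threshold no probe was called at any size, the gnl2 probe with its mean of -1.63 included.

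Of the 37 tested probes, 10 were higher in the mutant on both arrays (21.4% of all probes), 5 were lower on both (20.0% of all probes) and 22 were split (58.6% of all probes). The split probes mostly fell one way: 19 of the 22 were higher in whichever genotype was red, and 3 in whichever was green. Over all tested probes, 5999 of the 11301 split ones were higher in red and 5302 in green. Of the 19 member probes, 6 are of tnnt3b and 2 of tnnt3a. Red over green, the same ratios without the turned sign, had a mean above 0 in 31 of the 37 (52.9% of all probes). The median member read 0.19 on array 1, -0.075 on array 2 and 0.063 in the mean. The genes are therefore described by array throughout. Dye orientation and array cannot be told apart, and each array's ratio holds both genotype and dye.

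**Figure D1:**
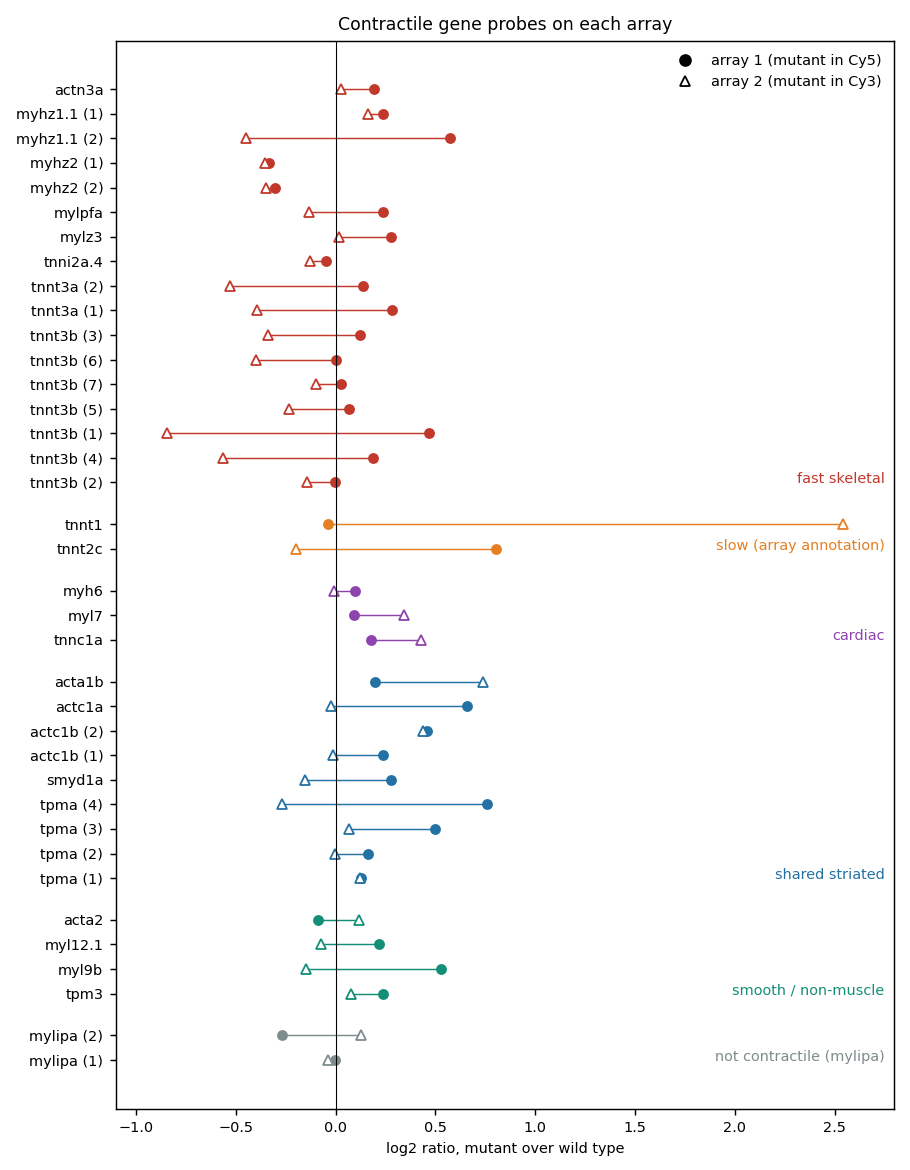
Each of the 37 tested contractile probes is a line joining its log2 ratio of mutant over wild type on array 1 (filled circle, mutant in Cy5) and array 2 (open triangle, mutant in Cy3). Probes are grouped by class, and a number in brackets tells probes of one gene apart. Long lines that cross 0 are frequent among the fast troponin T probes, while both myhz2 probes lie below 0 and the brightest actc1b probe lies above 0 on both arrays.

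Among the fast skeletal genes, the thick filament gave the only probes lower in the mutant at an unadjusted p under 0.05. Both probes of myhz2, a fast skeletal myosin heavy chain, were lower on both arrays. The brighter probe read -0.33 on array 1 and -0.35 on array 2. Its mean was -0.34 ± 0.014 (SD, n = 2 arrays). In limma's fit its unadjusted p was 0.019 and its adjusted p was 1.00, with a 95% interval from -0.59 to -0.10. Put as a fold, the mutant signal was 0.788 of the wild-type signal. The dimmer probe read -0.30 and -0.35, with a mean of -0.33 ± 0.030 and an unadjusted p of 0.023. Red over green was 0.0096 and 0.021 for these probes, so the swap of dyes changed their readings little.

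The next myosin heavy chain, myhz1.1, did not share that direction. Its bright probe read 0.24 and 0.16, a mean of 0.20 ± 0.050 with an unadjusted p of 0.087 in limma's fit. That probe was saturated in the red channel of each array, in the mutant on array 1 and in the wild type on array 2, so both ratios rest on a capped signal. The other probe, dimmer than this one but not saturated, read 0.57 and -0.45, with red over green at 0.51. Its mean log2 intensity was 10.3, against a median of 8.1 for all tested probes. In the order of genes in the GRCz12tu reference table, myhz2 lies 1 gene from myhc4 and 5 genes from myhz1.1. The fast myosin heavy chains of this cluster are close in sequence, so how much signal each probe takes from the neighbouring genes is uncertain.

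The fast myosin light chains and the Z-disc lay nearer 0. The regulatory light chain mylpfa read 0.24 and -0.13, and 23 pixels of its spot were saturated in the mutant channel of array 1 without a saturation flag. The essential light chain mylz3 read 0.28 and 0.018, and actn3a, an alpha-actinin that anchors thin filaments at the Z-disc, read 0.19 and 0.029. Of the 3, mylpfa alone was split between the arrays, and the mean ratios were 0.052, 0.15 and 0.11.

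The fast troponins, which set the calcium sensitivity of the thin filament, were mostly split between the arrays. The 7 probes of tnnt3b, a fast troponin T, read from -0.0017 to 0.47 on array 1 and from -0.84 to -0.10 on array 2. Of these, 6 were higher in the mutant on array 1, and all 7 were lower on array 2. Across the 7 the arrays correlated at r = -0.90 and rho = -0.71, a description over probes that share a transcript and both hybridisations: the higher a probe read on array 1, the lower it read on array 2. The mean ratios lay between -0.20 and -0.035 and had the same sign in all 7. The 95% interval of the probe with the widest split ran from -1.25 to 0.88.

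The other fast troponin T, tnnt3a, gave the same layout at both of its probes. The brighter read 0.14 and -0.53 and the dimmer 0.28 and -0.39, with red over green at 0.33 and 0.34. The fast troponin I named Tnni2 on the array, which lies 3 genes from tnnt3a and is now tnni2a.4, read -0.049 and -0.13. It was lower in the mutant on both arrays.

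Over the 17 tested fast probes (8 genes), 13 were higher in the mutant on array 1 (52.5% of all probes) and 3 on array 2 (48.9% of all probes). The median was 0.14 on array 1, -0.34 on array 2 and -0.083 in the mean. Red over green had a mean above 0 in all 17 (52.9% of all probes), with a median of 0.15. Of the 17, 10 were higher in red on both arrays (31.1% of all probes). An unadjusted p under 0.05 for red over green was reached by 3 of them (3.30% of all probes red higher), while 0% of all probes had an adjusted p under 0.05 and 8.07% an unadjusted one in either direction. Since 7 of the 17 probes are of tnnt3b, these counts lean on 1 gene. The class median of the mean kept its sign under each background correction and scaling tried, and red over green was above 0 in at least 16 fast probes under each. Those settings reuse the same probes. Taken by the brightest probe of each gene, or by the mean over each gene's probes, the class median was -0.018, close to 0.

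**Figure D2:**
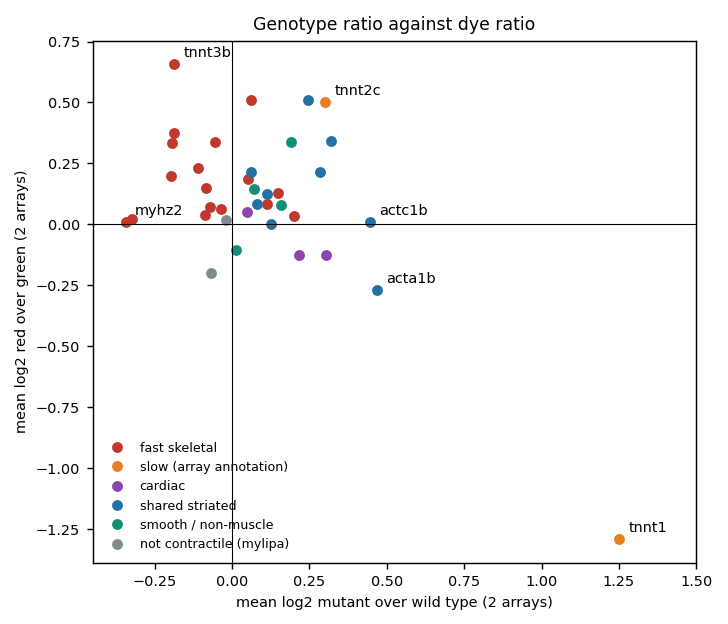
Each point is 1 of the 37 tested contractile probes, with its mean log2 mutant over wild type on the horizontal axis and its mean log2 red over green on the vertical axis, coloured by class. All 17 fast probes lie above 0 on the dye axis, myhz2 and actc1b lie near 0 on it, and tnnt1 stands apart at 1.25 and -1.29.

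The slow class was the thinnest and its probes disagreed. On the array 2 probes are named tnnt1, the slow troponin T, but the accession of one now belongs to tnnt2c, and the other, whose accession is not in the reference table, keeps the array's name. The probe kept as tnnt1 read -0.039 on array 1 and 2.54 on array 2, its mean being 1.25 ± 1.82 (SD, n = 2 arrays) with an unadjusted p of 0.16 in limma's fit. Its scanner signals were 898 in the mutant and 424 in the wild type on array 1, and 1874 and 588 on array 2. The mutant signal was thus above the wild-type signal on both arrays before normalization, while the median probe of each array was brighter in red. Array 2 alone gave a ratio away from 0, and the 95% interval ran from -0.80 to 3.30. When arrays were centred on their medians and no loess was used, the tnnt1 probe read 0.15 and 2.35, and its adjusted p in limma's fit was then 0.0042. That fit draws the variance of each probe toward that of all probes. The 2 readings stayed far apart, so this p does not measure their spread, and array 2 again gave most of the mean.

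The tnnt2c probe was bright and went the other way across the swap, at 0.80 and -0.20, with a mean of 0.30 ± 0.71 and red over green at 0.50. The split is of the kind seen in the fast troponin T probes. The median of the slow class, 0.78, is the mean of these unlike probes and describes neither.

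Cardiac genes were few, and their ratios were small and mostly positive. The regulatory light chain myl7, made in the whole early heart tube, read 0.091 and 0.34, a mean of 0.22 ± 0.18 with an unadjusted p of 0.12. The calcium-binding subunit tnnc1a, cardiac by its current name though annotated as slow troponin C on the array, read 0.18 and 0.43. Its mean was 0.30 ± 0.18, and the 95% interval ran from -0.0085 to 0.62. The tnnc1a probe was dim, and its mean ranged from 0.25 without background correction to 0.55 with Agilent's processed signals. The atrial myosin heavy chain myh6 read 0.10 and -0.0055.

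The cardiac genes thus read higher in the mutant on both arrays in 2 of 3 cases (21.4% of all probes). The class median was 0.10 on array 1 and 0.34 on array 2. For myl7 and tnnc1a red over green was -0.13 and -0.12, the opposite sign to the fast genes. For myh6 it was 0.053, the same sign as the fast genes. Whether cardiac and fast genes differ was not tested.

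The 5 heart markers tested include the ventricular myosin heavy chain myh7, which read 0.30 and 0.047. The transcription factors nkx2.5, gata4 and hand2 read -0.024 and 0.011, 0.079 and -0.065, and 0.089 and -0.0092. The natriuretic peptide gene nppa read -0.090 and -0.031. Of the 5, myh7 alone was higher on both arrays and nppa alone was lower on both. These probes were dim, with a median log2 intensity of 7.1 against 8.1 for all tested probes.

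Among the genes shared by striated muscles, all 9 tested probes (5 genes) had a mean ratio above 0, as did 9856 of all 19284 probes. All 9 were higher on array 1 (52.5% of all probes), and 4 of the 9 were higher on array 2 (48.9% of all probes). Of the 9, 4 are probes of tpma and 2 of actc1b, so these counts lean on few genes. The median was 0.28 on array 1, -0.0044 on array 2 and 0.24 in the mean, so the class median rested on array 1. The 4 higher on both arrays compare with 21.4% of all probes.

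Striated alpha-actins, the backbone of the thin filament, held the highest mean ratios of this class. The bright tested probe of actc1b, named acta1 on the array, read 0.46 on array 1 and 0.44 on array 2. Its mean was 0.45 ± 0.013 (SD, n = 2 arrays), a 1.36-fold higher signal in the mutant. In limma's fit the unadjusted p was 0.0083 and the adjusted p was 1.00, with a 95% interval from 0.20 to 0.69 and red over green at 0.0095. The dim actc1b probe read 0.24 and -0.013, and the bright probe removed by outlier flags read 0.21 and 0.41 before removal. All 3 were thus higher on array 1, and both bright probes on array 2.

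The alpha-actin acta1b, named actc on the array, read 0.20 and 0.74, a mean of 0.47 ± 0.38 with an unadjusted p of 0.057. The brightest actin probe, actc1a, read 0.66 and -0.023, so it was higher in the mutant on array 1 only. Striated alpha-actins are nearly identical proteins with similar coding sequences, and signal shared among these probes cannot be told apart from signal of each gene.

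The 4 probes of tpma, the alpha-tropomyosin that winds along the thin filament, spread from agreement to a wide split. The dimmest read 0.13 and 0.12, the next 0.16 and -0.0044, the next 0.50 and 0.068, and the brightest 0.76 and -0.27. Mean ratios lay between 0.079 and 0.28, and red over green between 0.00078 and 0.51. The methyltransferase smyd1a, which acts in myosin folding and thick filament assembly, read 0.28 and -0.15.

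Contractile genes of smooth muscle and non-muscle cells had a class median of 0.11 in the mean, against 0.24 for the shared striated genes. The broadly used tropomyosin tpm3 read 0.24 and 0.079, and the non-muscle regulatory light chain myl12.1 read 0.22 and -0.075. The smooth muscle light chain myl9b, a dim probe, read 0.53 and -0.15. The smooth muscle actin acta2, also dim, read -0.090 and 0.12, and its mean of 0.013 changed sign when Agilent's processed signals (-0.025) or median centring (-0.071) were used. Of the 4, tpm3 alone was higher in the mutant on both arrays. The mylipa probes read -0.0027 and -0.038, and -0.27 and 0.13.

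**Figure D3:**
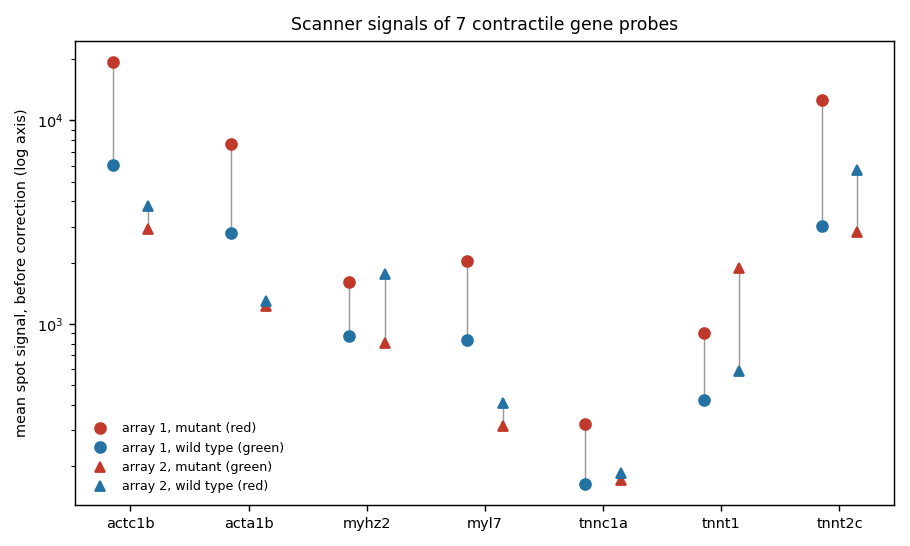
Scanner signals before correction (log axis) are shown for the brightest tested probe of 7 contractile genes, with mutant in red and wild type in blue symbols, circles for array 1 and triangles for array 2. The channel scanned in red is the higher one for each probe and array except tnnt1 on array 2, where the green mutant signal of 1874 lies above the red wild-type signal of 588.

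The array also holds sarcomere probes whose names fall outside the rule but whose annotation text names a sarcomere protein. There were 39 such probes and 36 were tested. Of the 36, 14 were higher in the mutant on both arrays (21.4% of all probes). Another 6 were lower on both (20.0% of all probes) and 16 were split (58.6% of all probes). Their median was 0.025, and 5 had an unadjusted p under 0.05, all higher (2.03% of all probes were higher and 1.24% lower at that p). These probes were picked with the members' values known and are given as a description.

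In the fast class of this set, 5 fast troponin T probes had means between -0.28 and -0.040. All 5 were lower in the mutant on array 2, where 48.9% of all probes were higher. That is the array on which the tnnt3a and tnnt3b probes were lower. On array 1 the 5 read 0.28, 0.18, 0.12, -0.024 and -0.074. Whether they take signal from tnnt3a or tnnt3b transcripts was not tested. A fast troponin I probe read 0.58 and 0.36, and a myosin light chain 2 probe read 0.50 and 0.18. The tnni2a.4 member, by contrast, read below 0 on both arrays, so the troponin I probes did not have one direction. Red over green had a mean above 0 in 8 of these 9 fast probes (52.9% of all probes). Since 5 of the 9 are fast troponin T probes, this count leans on 1 protein.

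For slow muscle the added probes also lacked a common direction. The probes annotated as slow troponin I read 0.26 and 0.40, and 0.078 and 0.091. A slow myosin heavy chain probe read 0.26 and -0.35. The added slow troponin T probes read 0.055 and -0.0019, and -0.29 and -0.12, and none resembled the 2.54 of the tnnt1 probe on array 2.

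Cardiac probes outside the rule were higher in the mutant on both arrays in 6 of 8 cases (21.4% of all probes), with a median of 0.13 on array 1, 0.32 on array 2 and 0.23 in the mean. The atrial light chain myl13 read 0.34 and 0.68, and the cardiac light chain cmlc1 read 0.21 and 0.46. A cardiac regulatory light chain probe read 0.18 and 0.55, next to 0.091 and 0.34 for the member myl7. The ventricular myosin heavy chain was less uniform. Its named probe, vmhc on the array and now myh7, read 0.30 and 0.047, another read 0.076 and 0.49, and a further one read -0.035 and -0.13. A ventricular light chain 2 probe read -0.39 and 0.17. By mean ratio, light chain probes were the 3 highest of the 8, and a light chain probe was also the lowest.

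Among the shared striated probes, desma, the muscle intermediate filament that ties sarcomeres side by side and is named desm on the array, read 0.84 and 0.21. Its mean was 0.53 ± 0.45 (SD, n = 2 arrays), and another desmin probe read -0.055 and 0.017. The 4 titin probes, for the giant spring of the sarcomere, had means between 0.0058 and 0.15. They read -0.24 and 0.55, 0.15 and 0.032, 0.10 and -0.032, and -0.073 and 0.085. These titin probes were dim, with mean log2 intensities from 6.4 to 7.2. A further alpha-actin probe read 0.36 and 0.25, while 3 others had means between -0.064 and 0.023, one of them from -0.57 and 0.55.

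**Figure D4:**
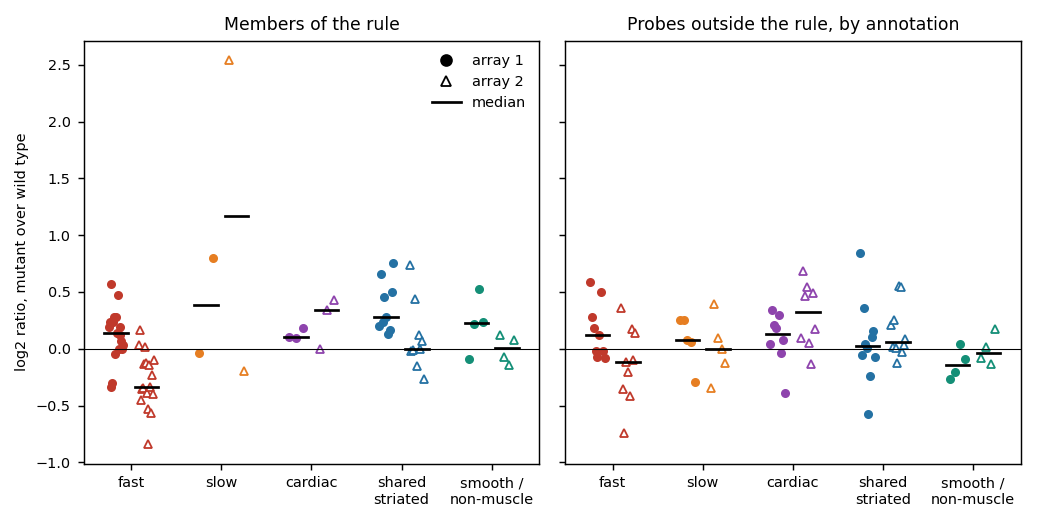
Log2 ratios of mutant over wild type are shown by class. The left panel holds the tested members except the 2 mylipa probes. The right panel holds the 36 tested probes outside the rule chosen by annotation text. Circles are array 1, triangles are array 2, and bars are class medians. The fast medians lie lower on array 2 than on array 1 in both panels, and the cardiac medians lie higher on array 2 in both.

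The wider muscle programme was read from lists of genes by role. In the list of thin filament, Z-disc and M-band genes, 7 of 23 probes (14 genes) were higher on both arrays and 2 lower on both, against 21.4% and 20.0% of all probes. In this list 0 had an unadjusted p under 0.05 in limma's fit in either direction. The thin filament capping protein gene tmod4 read 0.88 and 0.093, and the LIM protein gene fhl1a read 0.048 and 0.87 at one probe and -0.26 and 0.44 at the other. In each case 1 array gave most of the mean, and the median of the list was 0.034.

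The list of assembly chaperones and muscle ubiquitin ligases, without smyd1a, had the highest median of the lists, 0.22, with 6 of 9 probes (5 genes) higher on both arrays and 2 lower on both, against 21.4% and 20.0% of all probes. One probe of unc45b, the myosin chaperone, read 0.33 and 0.51 with an unadjusted p of 0.015 in limma's fit, while its other probe read -0.048 and -0.070. The 3 probes of hsp90aa1.1, the chaperone that works with unc45b in muscle, read 0.17 and 0.79, 0.16 and 0.64, and 0.058 and 0.38. All 3 were higher in the mutant on both arrays, and array 2 gave the higher value at each.

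Genes of calcium handling and muscle energy were higher on both arrays in 11 of 34 probes (21 genes; 21.4% of all probes) and lower on both in 3 (20.0% of all probes). The adenylate kinase gene ak1, which recycles adenine nucleotides in working muscle, was higher on both arrays at all 4 probes, with means from 0.42 to 0.52. The sarcoplasmic reticulum channel gene tmem38a read 0.24 and 0.32 with an unadjusted p of 0.036. By contrast, the calcium buffer genes pvalb1 and pvalb4 read 0.62 and -0.73, and 0.75 and -0.93 at the brighter pvalb4 probe. Their red over green of 0.68 and 0.84 exceeded that of every fast member, whose highest value was 0.66.

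The list of myogenic factors had 8 of 31 probes (20 genes) higher on both arrays and 5 lower on both, against 21.4% and 20.0% of all probes, with a median of 0.045. The determination factor myod1 read 0.48 and 0.40 at one probe (unadjusted p = 0.0094 in limma's fit) and -0.024 and 0.20 at the other. The differentiation factor myog read 0.29 and 0.54, with an unadjusted p of 0.022. The factors myf5 and myf6 stayed near 0, with means between -0.083 and 0.070. No gene of these lists had an adjusted p under 0.05.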

How the data were processed

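Scanner files of 2 arrays were analysed. Per the file headers, Agilent Feature Extraction A.7.5.1 gave each spot a mean intensity and a median local background. It also gave a log10 ratio of red over green and a p-value, both from its own processed signals after dye normalization by LOWESS (smoothing 0.25), per the file headers. The same log10 ratio, as red over green on both arrays, makes up the deposited value table.

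Mean signals and backgrounds went through normexp (offset 50) and then loess (span 0.3), in which control spots and outliers had weight 0 (limma 3.58.1, R 4.3.3). Probes with outlier flags, or not well above background on both arrays in at least 1 genotype, were left out. Saturated spots were kept. The mean log2 ratio was tested with lmFit and eBayes, 2-sided, and p-values were adjusted over 19284 probes by Benjamini-Hochberg at a threshold of 0.05, on 1 residual degree of freedom and 3.49 in total. The number of arrays limits the precision. Each probe was tested separately.

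The fit of red over green used the same ratios unturned. Names follow the reference table of assembly GRCz12tu: of the 39 probes, 29 matched by accession, 6 by symbol and 4 by synonym. Array names are old, so acta1 became actc1b, actc acta1b, and mylz2 mylpfa. No sequences were used here. The members, classes and lists were chosen with earlier results of these data known.

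Genes named are those with the largest ratios of the same sign per class, the widest splits, the highest red over green, the smallest p-values, and the largest mean per list, and genes added outside it are given as values. Alternatives were the background correction, scaling, filters, saturated probes, probe choice, the deposited table and each array alone. After seeing the data, tnnc1a and tnnt2c were put in other classes, and tnnt1 and mylipa left out.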

Additional observations from a re-analysis of the deposited data

How the results depend on the processing

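No paired analysis was possible because both arrays form 1 group, and mutant and wild type are already paired within each array's ratio. Median centring in place of loess moved the most counts: 38 probes (against 0) had an adjusted p under 0.05 and 283 (against 632) an unadjusted one, and red over green had 3562 (against 1556). Under it 1 member, tnnt1 at 1.25, passed the adjusted threshold, though its arrays stayed far apart at 0.15 and 2.35. With median centring 0 members (against 2) were lower at an unadjusted p under 0.05. The red over green median of the fast genes was then 0.34 (against 0.15). Members higher at an unadjusted p under 0.05 numbered 2 (against 1) without the normexp offset, with Agilent's processed signals and with outlier flags kept, and 1 member (against 2) was lower with the processed signals. The median of the assembly chaperones (0.22) became 0.38 without offset, 0.40 with processed signals or the deposited table and 0.33 by the brightest probe. The mean of acta2 (0.013) reversed to -0.025 with processed signals and to -0.071 with median centring. The cause of these changes was not tested. On single arrays the median of the shared striated genes ranged from -0.0044 to 0.28. Other medians also depended on the array: -0.34 to 0.14 for the fast genes, 0.38 to 1.17 for the slow genes and -0.075 to 0.19 for all members. Of 153 values of the named member probes under alternatives that keep both arrays, 150 kept their direction and side of the threshold, which nearly all missed throughout. On single arrays, 12 of the 22 named member probes had 1 array with a sign opposite to the mean. With tnnt1 left out the slow class is 1 probe at 0.30, and with tnnc1a counted as slow its median was 0.30 and the cardiac median 0.13. With tnnt2c counted as cardiac, the slow class is 1 probe at 1.25 and the cardiac median was 0.26. Each probe rests on 2 arrays, so array, dye orientation and replicate cannot be told apart, and dim probes such as acta2 and myl9b lie close to background.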
